A study of Homo sapiens with 8 samples.

Results

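The genes described here build and move the mitotic chromosome: cyclins and kinases of cell division, kinetochore and condensin proteins, spindle proteins and the kinesin motors. They were picked by a rule on gene symbols that takes 63 of the 4616 genes in the authors' deposited table of translational efficiency (TE), which is the ratio of ribosome footprints to RNA. The symbol rule reads families such as KIF, CENP, CCNB, NCAP and AURK together with 16 single names such as CDK1, TOP2A and PLK1. WM902B, an established human melanoma line that carries an activating BRAF mutation, was compared at passage 18 with a scrambled hairpin (shSCR) and with a hairpin against the long non-coding RNA TINCR (shTINCR). All cells received cycloheximide at 100 µg/ml for 5 min, and footprints and RNA were each sequenced in 2 biological replicates per hairpin, 8 libraries in all. The RNA libraries, the denominator of TE, are titled as total RNA but labelled as polyA RNA, and which of these they are is not settled here. Only 1 hairpin against TINCR is labelled, so an effect of that sequence on other targets and the loss of TINCR cannot be told apart.

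Entry into mitosis is driven by the kinase CDK1 bound to a B-type cyclin. Condensins and topoisomerase II then compact and untangle the chromosomes, kinetochores built on the centromere attach them to microtubules, and kinesin motors shape the spindle and move chromosomes along it. A checkpoint holds back the anaphase-promoting complex until all chromosomes are attached, after which cyclin B and securin are destroyed. Much of this set is transcribed late in the cell cycle through promoters with CCAAT boxes, which bind NF-Y, and a cell cycle homology region (CHR), which binds the DREAM and MuvB complexes. Synthesis of cyclin B is also known to be controlled at the level of translation. Kinesins that carry organelles and vesicles belong to the same protein family without having a main role in division.

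About as many genes of the whole table fell as rose in TE with the TINCR hairpin, and more of these genes fell than rose. At the adjusted p below 0.05 per the authors' deposited table, the threshold used throughout, 16 of the 63 members fell (25.4%) and 2 rose (3.17%), against 8.17% of all 4616 genes that fell and 8.23% that rose. The median log2 change of the 63 members was -0.18 (0.886-fold), beside 0.02 over all genes of the authors' deposited table. A change below 0 was found for 43 members (68.3%) and for 47.0% of all genes. Mitotic cyclins with their kinase, kinetochore proteins, topoisomerase IIα and condensin subunits made up most of the falls. The kinases PLK1, AURKB, BUB1 and TTK and the checkpoint genes BUB1B, BUB3 and MAD2L1 did not pass. The table gave 1 value per condition and none per library, so replicates cannot be shown, the depth is unknown, and the error of a change is known only through its p-value.

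Of the promoters, 7 are shown because the members share their motifs, which the symbol rule did not use, whether or not their TE passed the threshold. Each run is the 100 bases before the annotated start, on the coding strand, from RefSeq (GRCh38.p14), with every CCAAT box (CCAAT or ATTGG) and every CHR motif (TTTGAA or TTCAAA) in capitals. Capitals that abut or overlap join neighbouring motifs.
CCNB1: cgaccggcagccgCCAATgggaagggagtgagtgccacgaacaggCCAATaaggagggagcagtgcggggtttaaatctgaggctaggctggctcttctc
CCNB2: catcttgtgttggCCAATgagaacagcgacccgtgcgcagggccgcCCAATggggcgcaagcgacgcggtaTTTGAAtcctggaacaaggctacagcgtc
KIF11: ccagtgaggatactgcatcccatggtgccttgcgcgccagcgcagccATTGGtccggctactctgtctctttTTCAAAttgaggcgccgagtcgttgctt
HMMR: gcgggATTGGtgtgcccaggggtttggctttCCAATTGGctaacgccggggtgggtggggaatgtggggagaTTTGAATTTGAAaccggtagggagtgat
NCAPG: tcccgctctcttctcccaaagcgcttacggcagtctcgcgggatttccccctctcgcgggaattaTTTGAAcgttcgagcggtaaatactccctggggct
PLK1: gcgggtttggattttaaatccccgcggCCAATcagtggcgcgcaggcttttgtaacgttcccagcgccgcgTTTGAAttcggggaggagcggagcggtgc
CDC20: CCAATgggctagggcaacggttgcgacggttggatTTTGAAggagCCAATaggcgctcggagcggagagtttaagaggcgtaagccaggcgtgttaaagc
All 7 genes lie on the + strand. The windows are chr5:69167050-69167149 for CCNB1, chr15:59105046-59105145 for CCNB2, chr10:92593030-92593129 for KIF11 and chr5:163460532-163460631 for HMMR. Those of NCAPG, PLK1 and CDC20 are chr4:17810879-17810978, chr16:23678789-23678888 and chr1:43358881-43358980. The first 5 genes fell in TE and PLK1 and CDC20 did not pass, yet both sets hold both motifs, while CCNB1 shows CCAAT boxes without these CHR letters and NCAPG a CHR motif without a CCAAT box in this stretch.

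Promoter windows, each 250 bases before and 50 after an annotated start, were listed for 54 of the 63 members, 12 of them with more than 1 window. The CHR motif was found in 38 of 69 member windows (55.1%) and in 15.2% of all 35116 windows, on either strand. Within the last 60 bases before the start it was in 23.2% of member windows and in 2.71% of all windows. A CCAAT box was found in 66.7% of member windows and in 34.6% of all windows. Counted by gene, 36 of 54 members had a CHR motif (66.7%), 41 had a CCAAT box (75.9%) and 5 had neither. Of all 3857 measured genes with a window, 13.6% had a CHR motif and 45.4% a CCAAT box. A gene counted where any of its windows held the motif, so shares by gene and by window are not directly comparable. The 36 members with a CHR motif had a median log2 TE change of -0.23, with 11 that fell, and the 18 without it one of -0.12, with 4 that fell, per the authors' deposited table. Over all genes of that table with a window, the 526 with the motif had a median of 0.0042, with 59 that fell and 34 that rose, and the 3331 without it one of 0.02, with 258 that fell and 274 that rose. For the CCAAT box the order among members was the other way, per the authors' deposited table. The 41 with it had a median of -0.17, with 10 that fell, and the 13 without it one of -0.24, with 5 that fell. Over all genes with a window, the 1750 with the box had a median of 0.0144, with 155 that fell and 151 that rose. The 2107 without it had one of 0.0157, with 162 that fell and 157 that rose. The CHR motif was common on both sides of the threshold, at 12 of 17 members past it and 24 of 37 members not past it. A CCAAT box was at 11 of 17 and 30 of 37. A start with C and 4 further pyrimidines, the form of the terminal oligopyrimidine tract that marks mRNAs of the translation machinery, was found at an annotated start of 4 of 54 members (7.41%). It was found for 8.66% of the 3857 genes of the table with a window, for 41 of 64 ribosomal protein genes (64.1%) and, counted by window, in 4.07% of all windows.

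**Figure D1:**
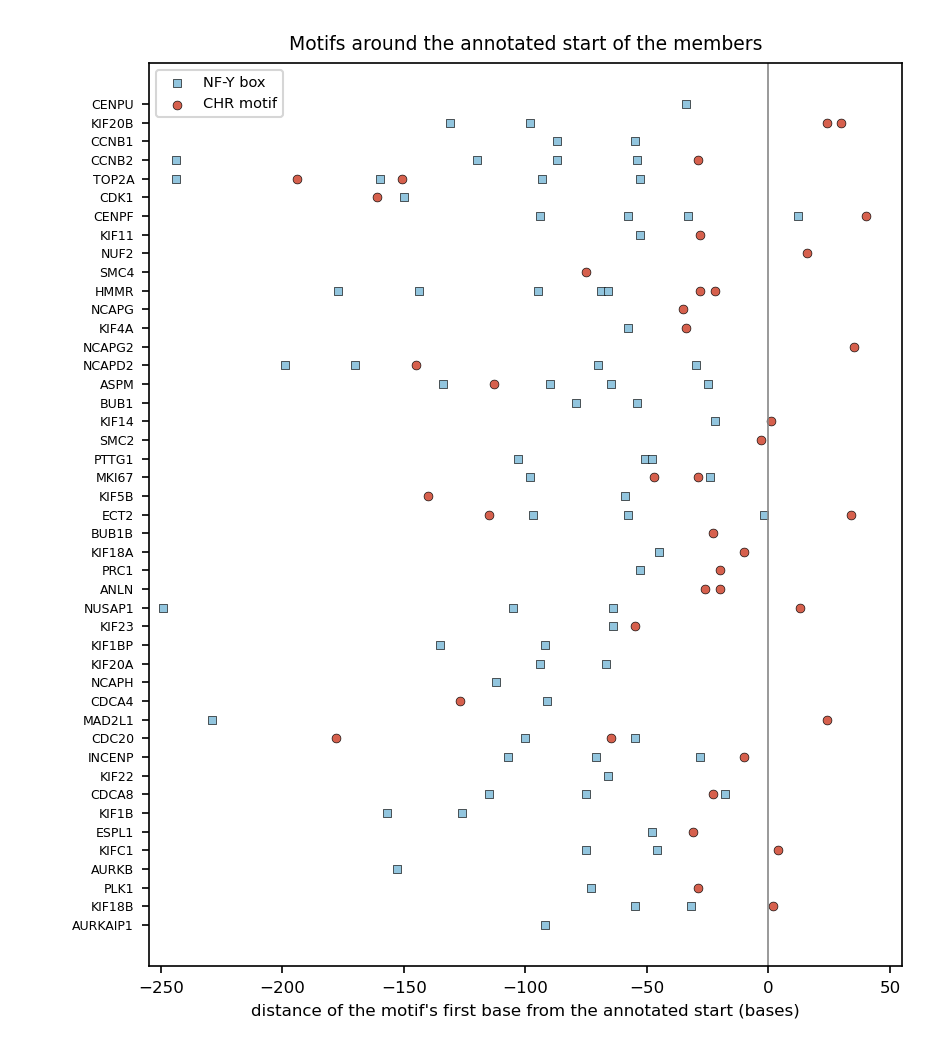
Position of CHR motifs (red circles) and NF-Y boxes (CCAAT, blue squares) around the annotated start of the 45 members with a motif in the first listed window, in bases from the start at 0, ordered by log2 change of TE from the lowest (top). CHR motifs lie near the start in members at the top as well as at the bottom, for example in CCNB2 and in PLK1.

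The mitotic cyclins and their kinase fell together. In the authors' deposited table cyclin B1 (CCNB1) had a log2 TE of 0.62 in shSCR and 0.13 in shTINCR cells, a fall to 0.717-fold (adjusted p = 0.000107). Cyclin B2 (CCNB2), the Golgi-associated B-type cyclin, went from 0.28 to -0.15, or 0.740-fold (adjusted p = 0.00796), as log2 TE of the authors' deposited table. CDK1, the kinase that both cyclins activate, had 0.14 and -0.26 per the authors' deposited table, or 0.758-fold (adjusted p = 0.0118). All 3 genes thus stood above the typical gene in control cells, and CCNB2 and CDK1 stood below it with the TINCR hairpin. The phosphatase CDC25B, which removes inhibitory phosphates from CDK1, had log2 TE values of 0.36 and 0.50 per the authors' deposited table and did not pass (adjusted p = 0.59). Cyclin A2 (CCNA2) had 0 rows there and was not analysed here.

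In the role of mitotic kinases and chromosomal passenger proteins 1 gene passed the threshold, while the kinase CDK1, which fell, is counted with the cyclins. Aurora A (AURKA), the kinase of centrosomes and spindle poles, fell from a log2 TE of -0.52 to -0.80 per the authors' deposited table, or to 0.823-fold (adjusted p = 0.0382). For Aurora B (AURKB), the catalytic subunit of the chromosomal passenger complex, the authors' deposited table gave 0.72 and 0.95 (1.18-fold, adjusted p = 0.237). Polo-like kinase PLK1 had one of the higher TE values of the set, with 1.34 and 1.59 as log2 values of the authors' deposited table (1.19-fold, adjusted p = 0.164). Neither kinase passed, and the difference between the Aurora kinases was not tested. On the 2 p-value versions of the authors' deposited table PLK1 had an adjusted p of 0.156 on the first and 0.0526 on the second. The checkpoint kinases BUB1 and TTK (MPS1) had log2 changes of -0.26 (adjusted p = 0.0863) and -0.19 (adjusted p = 0.328) per the authors' deposited table. The non-enzymatic passenger proteins INCENP, BIRC5 (survivin) and CDCA8 (borealin) lay close to 0, with 0.0056, 0.06 and 0.10 per the authors' deposited table. Of the 8 measured genes in this role 1 fell (12.5%, against 8.17% of all genes) and 0 rose. Their median was 0.03, and 3 had an unadjusted p below 0.05.

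Of the genes of the spindle checkpoint and of sister separation, the inhibitor of MAD2 was the 1 that passed the threshold, and the checkpoint kinases BUB1 and TTK are counted with the kinases. Of 8 measured genes 0 fell, 1 rose (12.5%, against 8.23% of all genes) and 2 had an unadjusted p below 0.05. Their median log2 change was 0.02 per the authors' deposited table. MAD2L1BP (p31comet), which removes the checkpoint protein MAD2 from its target, rose from a log2 TE of 0.69 to 1.05 per the authors' deposited table, or 1.29-fold (adjusted p = 0.0402). MAD2 itself (MAD2L1) had a log2 change of -0.07 there, the deposited adjusted p being 0.793. CDC20, the activator of the anaphase-promoting complex that MAD2 blocks, had the highest control TE of the 63 members, 1.44 against 1.40 with the TINCR hairpin as log2 values of the authors' deposited table (adjusted p = 0.847). Separase (ESPL1) had a change of 0.17 (adjusted p = 0.40) per the authors' deposited table. Its inhibitor securin (PTTG1) stood at 0.47 and 0.23 per the authors' deposited table and did not pass (adjusted p = 0.0801). Of the 2 p-value versions of the authors' deposited table, securin passed on the second (adjusted p = 0.0222, against 0.0758 on the first). BUBR1 (BUB1B), a component of the checkpoint complex, stood at -0.21 (adjusted p = 0.197) and its partner BUB3 at 0.09 in log2 change per the authors' deposited table.

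The kinetochore held the 2 largest falls among the members. CENPE, the kinesin that carries chromosomes to the spindle equator, had a log2 TE of 0.33 in shSCR and -0.19 in shTINCR cells per the authors' deposited table, a fall to 0.698-fold (adjusted p = 0.00125). CENPU, of the inner centromere network, went from -0.23 to -0.74 per the authors' deposited table, or 0.704-fold (adjusted p = 0.000883). CENPF, a large coiled-coil protein of the outer kinetochore, had -0.09 and -0.48 per the authors' deposited table, or 0.760-fold (adjusted p = 0.000496). With the TINCR hairpin all 3 lay below the median gene, and of them CENPE had lain above it in control cells. NUF2 of the microtubule-binding NDC80 complex had a change of -0.38 per the authors' deposited table, the largest in size among members not past the threshold (adjusted p = 0.107). The small inner proteins CENPH and CENPM stood at 0.08 and 0.01 per the authors' deposited table. The role thus split, with 3 of 6 measured genes that fell (50%, against 8.17% of all genes), 0 that rose and a median of -0.39. That share rests on 3 genes, of which CENPU has named pseudogenes and overlaps the coding gene PRIMPOL.

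Condensin, the ring complex that compacts chromosomes, had falls among its subunits, and among those particular to condensin II only NCAPG2 fell. Of 8 measured condensin genes 4 fell (50%, against 8.17% of all genes), 0 rose and 7 had a change below 0. Their median log2 change was -0.28 (0.823-fold) per the authors' deposited table. That share rests on 4 genes, of which SMC4, NCAPG and NCAPD2 have named pseudogenes. SMC4, one of the ATPase arms shared by condensin I and II, had a log2 TE of 0.30 in shSCR and -0.06 in shTINCR cells per the authors' deposited table (0.777-fold, adjusted p = 0.00475). The condensin I subunits NCAPG and NCAPD2 went from 0.19 to -0.15 (adjusted p = 0.0157) and from 0.45 to 0.13 (adjusted p = 0.0161) per the authors' deposited table. NCAPG2 of condensin II fell from 0.10 to -0.23 (adjusted p = 0.0354) per the authors' deposited table. The other arm SMC2 had a change of -0.24 (adjusted p = 0.13), NCAPH one of -0.11 and NCAPD3 one of -0.14 per the authors' deposited table, and none of them passed. NCAPH2 of condensin II had the one change above 0 among them, 0.12 per the authors' deposited table (adjusted p = 0.597).

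Topoisomerase IIα (TOP2A), which removes tangles between sister chromatids, fell from a log2 TE of 0.26 to -0.15 per the authors' deposited table, or to 0.753-fold (adjusted p = 0.000107). The proliferation marker Ki-67 (MKI67), which coats mitotic chromosomes, had a high TE of 1.12 and 0.88 as log2 values of the authors' deposited table and did not pass. Its 2 p-value versions lay far apart per the authors' deposited table, with an adjusted p of 0.539 on the first and 0.0548 on the second.

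**Figure D2:**
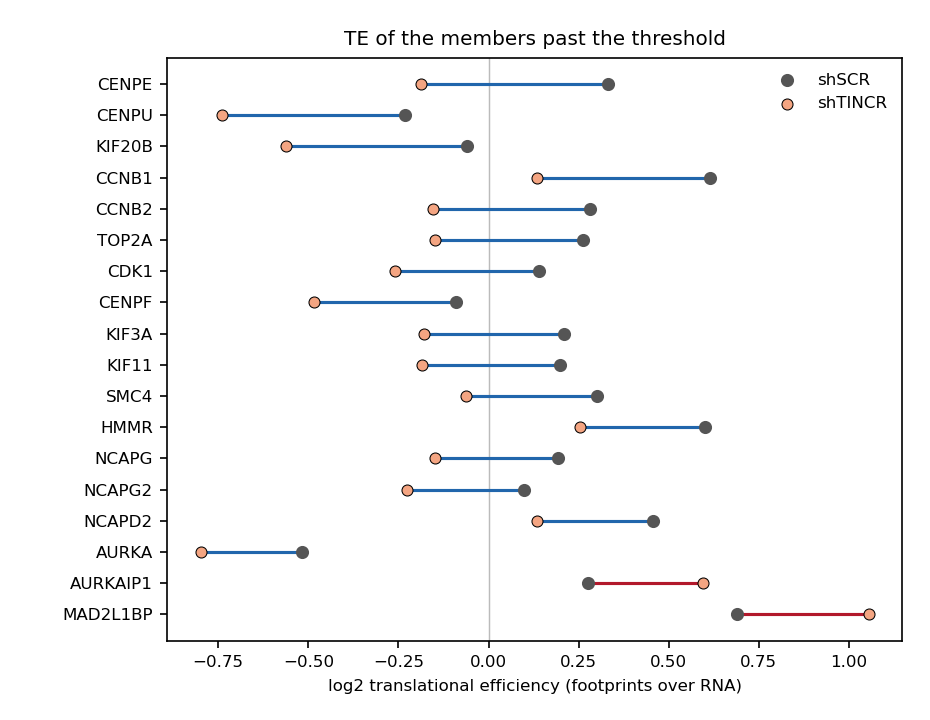
log2 TE in shSCR (grey) and shTINCR (orange) cells of the 18 members past the threshold, 1 value per condition with no error given, joined by blue lines for the 16 that fell and red lines for the 2 that rose. In shSCR cells 12 of the 16 that fell lay above 0, and in shTINCR cells 3 did.

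Among the mitotic kinesins 2 of 12 fell (16.7%, against 8.17% of all genes) and 0 rose, with a median log2 change of -0.17. That share rests on 2 genes. KIF11 (Eg5), the motor that pushes spindle poles apart, had a log2 TE of 0.20 in shSCR and -0.18 in shTINCR cells per the authors' deposited table (0.768-fold, adjusted p = 0.00929). KIF20B, a motor of late division, went from -0.06 to -0.56 per the authors' deposited table (0.706-fold, adjusted p = 0.00624). KIF4A, a chromosome-bound motor, lay just outside the threshold with a change of -0.33 (adjusted p = 0.05004 per the authors' deposited table). Taken alone, each p-value version of the authors' deposited table gave KIF4A an adjusted p below the threshold, 0.0474 on the first and 0.0277 on the second. An almost identical copy of KIF4A, KIF4B, had 0 rows, and reads shared with it would make the KIF4A value uncertain. KIF3A, a transport kinesin, lay just inside the threshold (adjusted p = 0.0464 per the authors' deposited table). KIF23, KIF14, KIF18A, KIF2A, KIF20A and KIF2C had changes between -0.24 and -0.07 per the authors' deposited table and did not pass. Changes above 0 were those of KIF18B (0.25, adjusted p = 0.39), KIFC1 (0.17, adjusted p = 0.474) and KIF22 (0.05) per the authors' deposited table, and none passed.

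Of the 5 transport kinesins 1 fell (20%, against 8.17% of all genes), a share that rests on 1 gene. KIF3A, a subunit of the ciliary motor kinesin-II, fell from a log2 TE of 0.21 to -0.18 (0.765-fold) per the authors' deposited table. KIF5B, the ubiquitous conventional kinesin, had low TE in both conditions, -1.02 and -1.25, and did not pass (adjusted p = 0.0655) per the authors' deposited table. KIF13B and KIF1B had changes of 0.18 and 0.14 per the authors' deposited table, neither of which passed, and KIF13A was listed at 0.00. The median of the 5 was 0.00 and that of the 17 KIF motors -0.17, with 3 that fell, not counting CENPE, a kinesin described with the kinetochore.

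All 7 spindle and cytokinesis proteins had a change below 0 per the authors' deposited table, and 1 of them fell (14.3%, against 8.17% of all genes). HMMR, a microtubule-binding protein of spindle assembly, had a log2 TE of 0.60 in shSCR and 0.25 in shTINCR cells per the authors' deposited table (0.787-fold, adjusted p = 0.0164). The spindle pole protein ASPM had a change of -0.29 (adjusted p = 0.0962), ECT2, the exchange factor of the cleavage furrow, -0.22 (adjusted p = 0.302), and PRC1, which bundles midzone microtubules, -0.20 (adjusted p = 0.151) per the authors' deposited table. Anillin (ANLN) stood at -0.18, NUSAP1 at -0.17 and TPX2 at -0.08 per the authors' deposited table, and none passed. The median of the 7 was -0.20.

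Of the members that share only a symbol with these families, AURKAIP1, named for binding Aurora A and known as a mitochondrial ribosome protein, rose from a log2 TE of 0.27 to 0.59 (1.25-fold, adjusted p = 0.0165) per the authors' deposited table. KIF1BP, a kinesin-binding protein, and CDCA4 had changes of -0.13 and -0.10 per the authors' deposited table and did not pass. Without these 3 and the transport kinesins, 15 of 55 members fell and 1 rose.

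**Figure D3:**
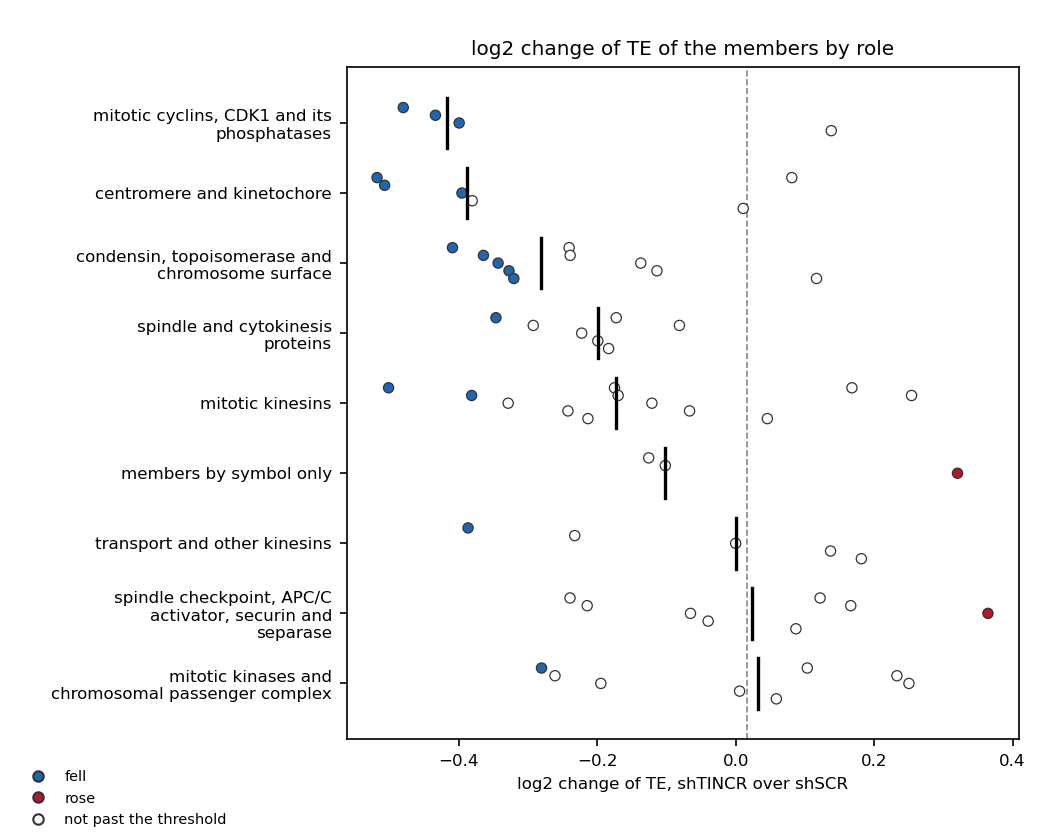
log2 change of TE (shTINCR over shSCR) of each of the 63 members by role, filled blue for those that fell, red for those that rose and open for those not past the threshold, with a bar at the role's median and a dashed line at the median of all genes (0.02). The cyclin, kinetochore and condensin medians lie at -0.42, -0.39 and -0.28, and those of the kinase and checkpoint roles at 0.03 and 0.02.

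Control TE of the members spanned a wide range. From the authors' deposited table, the lowest log2 TE in shSCR cells was -1.83 for BIRC5, at rank 4480 of 4616 genes, followed by KIF13A (-1.39), KIF1B and CDCA4 (-1.07 each) and KIF5B (-1.02). The highest were CDC20 (1.44, rank 175), PLK1 (1.34, rank 210), KIFC1 (1.16, rank 308) and MKI67 (1.12, rank 347) per the authors' deposited table. Whether neighbours in this order differ is unknown, as no error per condition was given. The member median was 0.28 in shSCR and 0.03 in shTINCR cells, next to 0.0078 and 0.0019 for all genes of the authors' deposited table. Members above the median gene numbered 43 in shSCR and 32 in shTINCR cells.

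CCNB1 moved from rank 1009 to rank 2036 and TOP2A from rank 1761 to rank 2631 per the authors' deposited table. The 16 members that fell had control log2 TE between -0.52 (AURKA) and 0.62 (CCNB1), so the members with the highest and the lowest TE were not among them. Across the 63 members, which are not independent replicates, the change had a Pearson r of 0.07 with log2 TE in shSCR cells, a value that enters the change itself. Across all genes of the table that r was -0.05.

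**Figure D4:**
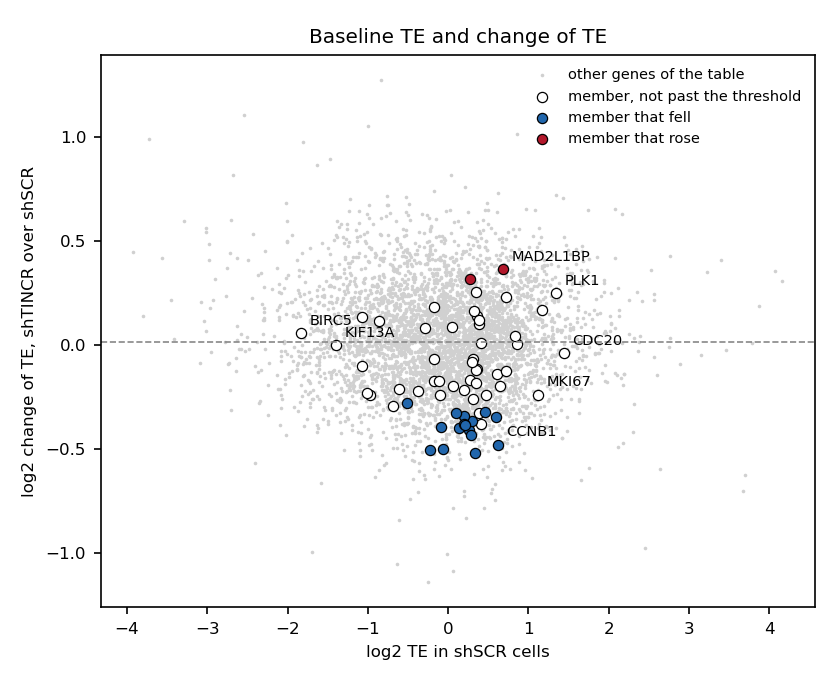
log2 change of TE against log2 TE in shSCR cells for all 4616 genes (grey), with the 63 members as larger points, blue where they fell, red where they rose and open where they did not pass, and a dashed line at the median change of all genes. The blue points lie between -0.52 and 0.62 on the x axis, and the members further out did not pass or rose, some below the dashed line, such as MKI67 (-0.24), and some above it, such as PLK1 (0.25).

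GC content of the promoter window was one measure that moved with the change in the whole table. Over 3857 genes Pearson's r between window GC and log2 change was 0.15, and over 54 members it was 0.26, with genes and not samples as points. When these genes were split at their median window GC, 207 fell and 108 rose on the GC-poor side, and 110 fell and 200 rose on the GC-rich side, per the authors' deposited table. Members split at their own median fell on both sides, 9 of 28 GC-poor ones (median -0.22) and 6 of 26 GC-rich ones (median -0.18), with 1 that rose on each, per the authors' deposited table. Median window GC of the members was 62.7% and that of all genes 64.8%. The part of base composition in the members' falls was not tested.

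Other genes of division, from lists that the symbol rule does not cover, were then read the same way. Over 6 lists with 96 measured genes, 15 fell (15.6%) and 5 rose (5.21%), against 8.17% and 8.23% of all genes, with a median log2 change of -0.09 per the authors' deposited table. Cohesin, the ring that holds sister chromatids together, had 3 of 11 measured genes that fell and 1 that rose, a median of -0.22, and 10 of the 11 below 0. Its release factor WAPL fell from a log2 TE of -0.99 to -1.47 (adjusted p = 0.012), the subunit STAG2 had a change of -0.29 (adjusted p = 0.0263) and the protector SGO2 one of -0.40 (adjusted p = 0.038) per the authors' deposited table. The cohesin loader MAU2 rose by 0.48 (adjusted p = 0.0249) as log2 values of the authors' deposited table.

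Of 16 further kinetochore and checkpoint genes 3 fell (18.75%, against 8.17% of all genes) and 0 rose, with a median of -0.08. NDC80, the partner of NUF2, fell from a log2 TE of 0.49 to -0.09 per the authors' deposited table, or by 0.58 (adjusted p = 0.000448). The scaffold KNL1 and the checkpoint protein ZWILCH had changes of -0.38 (adjusted p = 0.0443) and -0.39 (adjusted p = 0.0464) per the authors' deposited table. Of 29 further spindle, centrosome and cytokinesis genes 4 fell (13.8%, against 8.17% of all genes) and 0 rose, with a median of -0.07. Both shares rest on few genes. The 4 were the dynein intermediate chain DYNC1I2 (-0.42), the centriole protein CEP152 (-0.57) and the spindle proteins CKAP2 (-0.40) and DLGAP5 (-0.33) per the authors' deposited table.

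Subunits and partners of the anaphase-promoting complex had 1 gene that fell and 1 that rose among 11 measured (9.09% each, near the shares of all genes), with a median of 0.05. The subunit CDC16 fell from a log2 TE of 0.96 to 0.36 (adjusted p = 0.000649) and the ubiquitin-conjugating enzyme UBE2S rose by 0.29 (adjusted p = 0.024) per the authors' deposited table. Of 19 regulators of mitotic entry and exit 2 fell (10.5%, also near the share of all genes) and 0 rose. The 2 were the phosphatase subunit PPP1CC (-0.44, adjusted p = 0.00105) and the centrosomal kinase NEK2 (-0.46, adjusted p = 0.047) per the authors' deposited table. G1 cyclins, CDKs and their inhibitors went both ways, with 2 of 10 that fell (20%), 3 that rose (30%) and a median of -0.01. The shares of all genes were 8.17% and 8.23%, and those of this list rest on few genes. CDK7 and its cyclin CCNH, which together activate CDK1 and other CDKs, had changes of -0.54 (adjusted p = 0.00305) and -0.51 (adjusted p = 0.00736) per the authors' deposited table. The inhibitors CDKN2A and CDKN1A rose by 0.66 and 0.44, and cyclin D1 (CCND1), which drives G1 progression, by 0.21 (adjusted p = 0.0477), per the authors' deposited table.

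**Figure D5:**
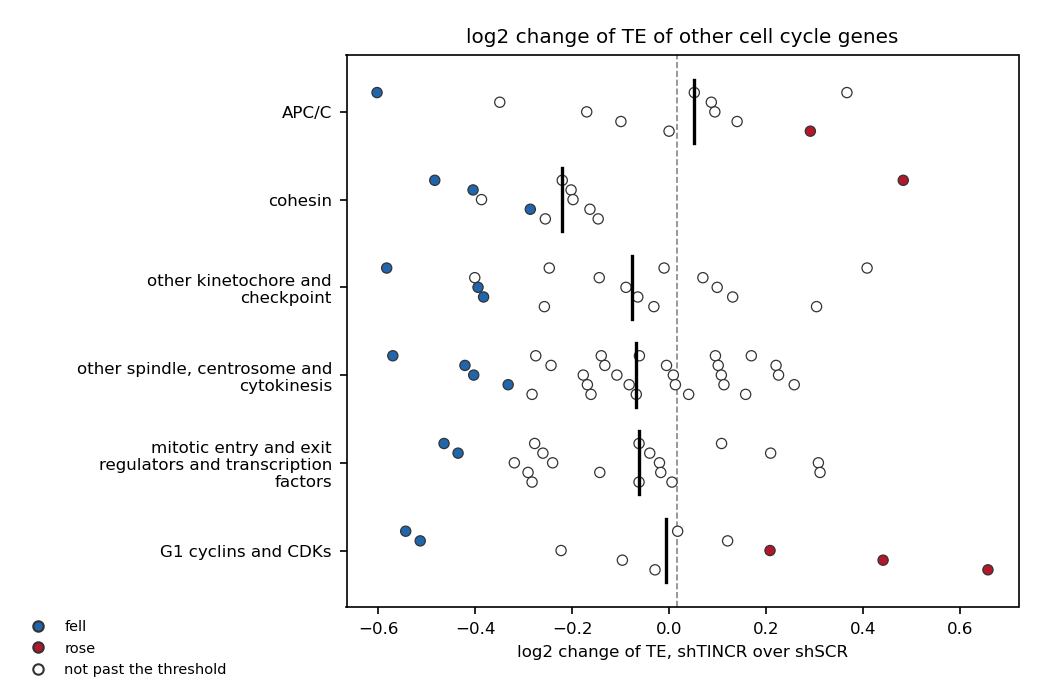
log2 change of TE of 96 further cell cycle genes in 6 lists, filled blue for those that fell, red for those that rose and open for those not past the threshold, with a bar at the list's median and a dashed line at the median of all genes. The cohesin median is the lowest at -0.22 and that of the anaphase-promoting complex (APC/C) the highest at 0.05.

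The identity of the cells and the counting bear on these values as follows. Of 9 melanocyte lineage markers 7 had a row in the table, while 0 of 4 keratinocyte, 0 of 2 endothelial, 1 of 4 fibroblast (COL1A2) and 1 of 3 leukocyte markers (CD68) had one; the table lists no level. TINCR had 0 rows, so its silencing was not checked. In these bulk samples a shift in the share of dividing cells and a change of TE within cells cannot be told apart. RNA and footprint levels of the members were not analysed here. Named pseudogenes exist for 16 members, 7 of them past the threshold (CENPU, SMC4, CCNB2, NCAPG, NCAPD2, AURKA and KIF3A), and reads shared with them would make those values uncertain. When all genes with a named pseudogene were left out, 9 of 47 members fell. CENPU, NCAPG and MAD2L1BP overlap another coding gene (PRIMPOL, LCORL and GTPBP2), and CCNB1, SMC4 and NCAPD2 hold small RNA genes. Whether their reads entered the values was not tested. Without all members that overlap a coding gene or hold a small RNA gene, 11 fell and 1 rose, and the number of members left is not given here. The shares of all genes called under either exclusion are not given here, so whether the members' excess of falls held is not shown.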

How the data were processed

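Footprints and RNA of WM902B cells with shSCR or shTINCR were profiled in 2 replicates per hairpin. Per the submitters' processing notes, the tools included DESeq 1.10.1, HTSeq 0.5.3p9, SAMtools 0.1.18, Bowtie2 2.1.0, TopHat2 2.0.8 and CASAVA 1.9, with build hg19 and with no role given for any tool. For the counted region, its strand, trimming and low-value filters, no setting is given in the sources used here. Per the file headers, the authors' table gives log2 TE per condition, log2 changes and p-values of 1 comparison. The deposited p-value is the larger of 2 versions in all 4616 rows, and its adjustment equals Benjamini-Hochberg over all rows to within 2e-15. The table has 0 columns of single libraries, so no count test was run.

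Members follow the symbol rule. The members and lists were chosen with earlier results of these data known. Named genes are the members past the threshold, 2 more per role by p, 14 fixed members and up to 4 per list; further members were named after their values were seen. Symbols were matched to RefSeq (GRCh38.p14), 63 of 63 members. Folds are 2 to the power of the log2 change. Python 3.11.15 was used with matplotlib 3.10.9, scipy 1.17.1, numpy 2.4.6 and pandas 2.3.3, and the adjustment was tested on simulated data.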

Additional observations from a re-analysis of the deposited data

How the results depend on the processing

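The counts of 16 members that fell and 2 that rose came to 17 and 2 on the first p-value version. They were 18 and 2 on the second, and 21 and 2 at an adjusted p below 0.1. Without the 25% of genes with the largest implied standard error 54 members were left, of which 17 fell and 2 rose. That error was computed from the log2 change and the same final p-value that makes the call. Genes past the threshold tend to be kept for this reason, so these counts are no separate check of the calls. The shares of all genes called under these and the following settings are not given here. Whether the members' excess of falls over all genes held under them is therefore not shown. At an adjusted p below 0.01, 9 members fell and 0 rose, in 4 roles instead of 7, and 7 genes of the other lists fell and 2 rose instead of 15 and 5. With Bonferroni adjustment 2 members fell (CCNB1 and TOP2A, in 2 roles) and 0 rose, and of the other lists 0 fell and 1 rose. Without genes with a named pseudogene 9 of 47 members fell, the other lists had 8 that fell and 3 that rose, and the member median was -0.17. Without transport kinesins and members by symbol only, 1 rose and the median was -0.19. Without members that overlap a coding gene or hold a small RNA gene, a choice made after seeing the data, 1 rose and the median was -0.17. Centred on the median of all genes it was -0.19. Centring turned CENPM and INCENP, which lay just above 0, to -0.0052 and -0.0105. No other member changed sign from above 0 to below or the reverse under the alternatives run. Beside those that passed, KIF4A and PTTG1 did so on at least 1 p-value version, and KIF5B, BUB1 and ASPM at an adjusted p below 0.1. No paired analysis was possible because the table holds no value per replicate, and leaving out a replicate and the count tests were not run for the same reason. Depth is unknown, and the smallest change past the threshold was 0.28 in size.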
